A study of Mus musculus with 8 samples.

Results

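The inorganic ion and bicarbonate carriers were examined as a group of genes in mouse inner medullary collecting duct cells exposed to added NaCl. They were taken as every gene of the raw count table whose symbol belongs to the Slc4, Slc8, Slc9, Slc11, Slc12, Slc20, Slc24, Slc26, Slc30, Slc34, Slc39, Slc40 or Slc41 family. Slc12a2 and Slc30a1 were left out by the rule. This gave 54 genes of the 15288 in the table, of which 49 passed the filter on low counts and were tested. The genes were 6 sodium-proton exchangers (Slc9), 7 bicarbonate and related carriers (Slc4), 5 anion exchangers (Slc26) and 8 members of the cation-chloride cotransporter family (Slc12). The others were 3 sodium-calcium exchangers (Slc8 and Slc24), 2 phosphate cotransporters (Slc20), 3 iron and divalent metal carriers (Slc11 and Slc40), 3 magnesium carriers (Slc41) and 17 zinc carriers (Slc30 and Slc39).

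The cells were the line IMCD, derived from the kidney's inner medullary collecting duct, and the labels give no genetic change or animal age for it. All 8 libraries came from cells grown to confluence in high-glucose DMEM with 10% serum (FBS), penicillin and streptomycin, and then kept for 12 h in DMEM without serum. In the control group (replicates 1 to 4) nothing was added, and in the NaCl group (replicates 5 to 8) the medium held an additional 100 mmol NaCl, an amount the labels give without a volume. Values come from bulk RNA sequencing and are CPM, the counts of a gene scaled to the total and composition of its library, and changes are log2 fold changes of NaCl over control. Nothing in the labels says that the libraries of a group came from separate cultures, so p-values measure the spread between these libraries, which may be technical.

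As background, carriers of inorganic ions set the pH, chloride, volume and metal content of a cell. Sodium-proton exchange and chloride-bicarbonate exchange working together bring NaCl into a shrunken cell, and potassium-chloride cotransport lets KCl out of a swollen cell. In the collecting duct, bicarbonate carriers in the basolateral and apical membranes also serve urinary acid and base excretion. Zinc is moved out of the cytosol by the Slc30 (ZnT) carriers and into it by the Slc39 (ZIP) carriers, and iron leaves the cell through ferroportin (Slc40a1).

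Depth ranged from 35.29 to 47.57 M counts per library, and the extremes were NaCl replicate 5 and control replicate 1. Of the markers of collecting duct principal and inner medullary cells, the water channel gene Aqp2 was near 0, with 0 to 3 counts in control and 8 to 15 counts in NaCl libraries, and the highest was Gata3, at means of 8.10 and 5.97 CPM. Of 7 tested, Slc14a2 and Avpr2 were called higher and Scnn1g and Gata3 lower in edgeR (log2 1.13, 2.60, -0.84 and -0.44; with the library number as a linear drift Avpr2 at 1.31 and Gata3 at -0.37 were not called), while the 10 analysed summed to 17.3 to 19.5 CPM in control and 16.5 to 18.9 CPM in NaCl libraries. The 6 epithelial markers summed to 905 to 1196 CPM in control and 1690 to 1940 CPM in NaCl libraries, with Cdh16 at means of 639 and 1380 CPM (called higher, log2 1.11) making up the difference. Cdh1 was also called higher, at 0.195 and 0.535 CPM, a call lost with the library number as a linear drift (adjusted p = 0.100), and Epcam, Krt8, Krt18 and Krt19 were not called (log2 0.05, -0.18, -0.08 and -0.03). In the drift fit Epcam, Krt8, Krt18 and Krt19 were called lower (log2 -0.32, -0.57, -0.53 and -1.34, edgeR adjusted p = 0.0372, 1.46e-04, 5.98e-08 and 0.0066). The 5 markers listed for stroma summed to 2753 to 3185 CPM in control and 2405 to 2822 CPM in NaCl libraries, mostly Col1a1 (called lower, log2 -0.21), while Pdgfrb was called higher (0.70) and Pdgfra lower (-0.67). With a linear drift Pdgfrb alone of these 3 was called (adjusted p = 0.437 for Col1a1 and 0.452 for Pdgfra). The 2 immune markers analysed summed to 5.95 to 7.19 CPM in control and 14.9 to 15.3 CPM in NaCl libraries, with Ptprc at means of 4.05 and 13.5 CPM and Cd68 at 2.41 and 1.69 CPM. The part of these markers in the results was not tested. In bulk libraries, fewer cells of a type and less RNA per cell cannot be told apart.

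Of the 49 carriers tested, 18 were called (edgeR's quasi-likelihood test, Benjamini-Hochberg adjusted p under 0.05 over all 14024 genes tested), which is 36.7% against 34.1% of all genes. There were 10 called higher with NaCl, where 16.9% of all genes were called higher, and 8 called lower, where 17.2% were. A change of at least 1.5-fold was seen in 3 called carriers, Slc4a9, Slc4a11 and Slc12a8, and in 7.02% of all genes. The libraries of the groups did not overlap for 18 carriers, 15 of them called, and for 33.4% of all genes. The median log2 fold change of the carriers was 0.03 and their median absolute change 0.18, beside 0.00287 and 0.14 over all genes tested. As a whole the carriers were thus called about as often as other genes. The calls lay unevenly between families, but these held only 1 to 16 tested genes each, and the unevenness was not tested.

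**Figure D1:**
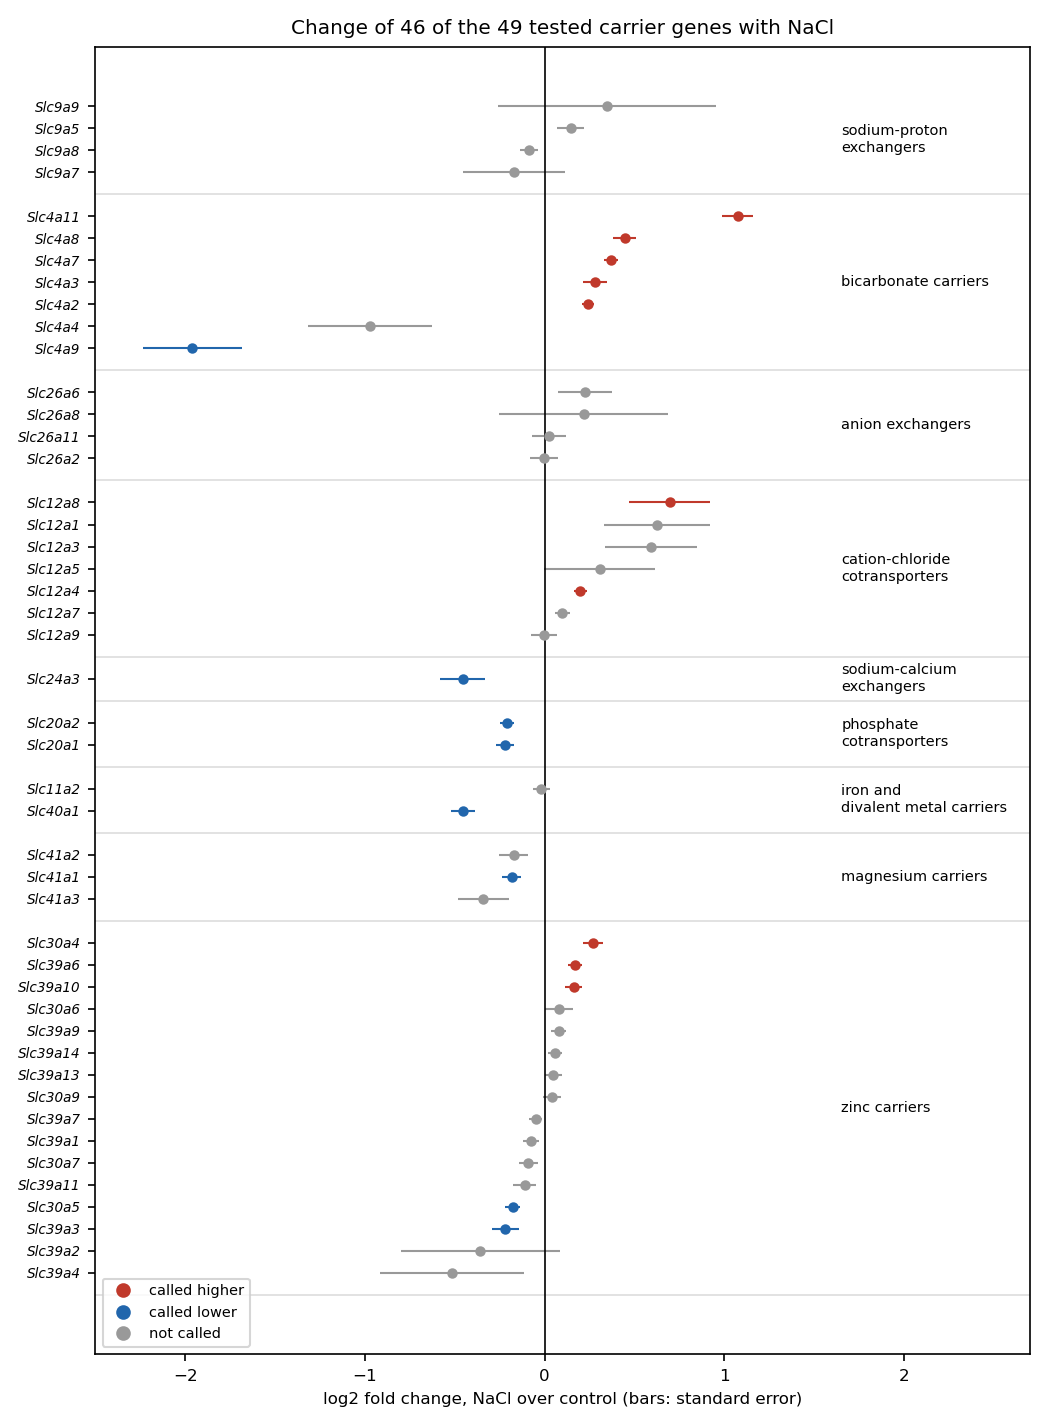
Log2 fold change of NaCl over control (horizontal axis) for 46 of the 49 tested carriers, grouped by family, with the standard error as a bar; red marks genes called higher, blue genes called lower and grey genes not called. The Slc4 family holds both ends of the range, Slc4a11 at 1.08 and Slc4a9 at -1.96, while the sodium-proton exchangers shown lie near 0 or have wide errors.

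Of the bicarbonate carriers (Slc4), 6 of 7 were called (85.7%, beside 34.1% of all genes), 5 higher (16.9% of all genes) and 1 lower (17.2%), with no overlap between groups for any of the 7 (33.4% of all genes). The genes that rose were Slc4a2, Slc4a3, Slc4a7, Slc4a8 and Slc4a11, and the gene that fell was Slc4a9. The family's median log2 fold change was 0.28 and its median absolute change 0.45.

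Slc4a11 (ENSMUSG00000074796, chr2:130684113-130697519) encodes a relative of the bicarbonate carriers known to pass protons, hydroxide or ammonia. It had 9.20, 12.3, 9.76 and 11.3 CPM in control replicates 1 to 4 and 22.01, 22.2, 23.2 and 22.3 CPM in NaCl replicates 5 to 8. Every NaCl library lay well above every control library, and the NaCl libraries were closer together than the controls. Means were 10.7 ± 1.43 CPM in control and 22.4 ± 0.525 CPM in NaCl libraries (SD, n = 4 each), so the gene rose 2.11-fold, with a log2 change of 1.08 (SE 0.09) and an edgeR adjusted p of 6.06e-08.

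Slc4a9 (ENSMUSG00000024485) encodes AE4, an anion exchanger best known from intercalated cells of the collecting duct. Control replicates 1 to 4 had 3.90, 5.48, 8.12 and 8.58 CPM, and NaCl replicates 5 to 8 had 1.09, 1.51, 1.96 and 2.07 CPM. The controls differed among themselves by over 2-fold and still all lay above the NaCl libraries. Means were 6.52 ± 2.22 CPM in control and 1.66 ± 0.451 CPM in NaCl libraries (SD, n = 4 each), 3.89-fold lower with NaCl, at a log2 change of -1.96 (SE 0.27) and an edgeR adjusted p of 2.19e-04. Of the 8 markers listed for intercalated cells, Slc4a9 and Rhbg were analysed here and the other 6 were not. Rhbg, an ammonia channel gene, had 0.157 CPM in control and 0.111 CPM in NaCl libraries and was too low to test.

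Slc4a4 (ENSMUSG00000060961, chr5:88886818-89239653) encodes NBCe1, the electrogenic sodium-bicarbonate cotransporter, and was described after its values were seen, because its groups were separate although it was not called. Its libraries had 39.4, 45.2, 64.7 and 64.1 CPM in control replicates 1 to 4 and 14.3, 21.7, 34.9 and 37.4 CPM in NaCl replicates 5 to 8. The lowest control library stood just above the highest NaCl library, and in both groups the 2 libraries with the higher numbers had the higher levels. Mean levels were 53.4 ± 13.0 CPM in control and 27.1 ± 10.9 CPM in NaCl libraries (SD, n = 4 each), a log2 difference of -0.97 (SE 0.34) with an edgeR adjusted p of 0.0758. Called lower by DESeq2 (adjusted p = 0.0153) and by limma-voom (0.00463), it was also called with edgeR once the library number was a covariate, centred within its group (log2 -1.02, adjusted p = 0.00306) or as a linear drift over libraries 1 to 8 (log2 -2.43, adjusted p = 0.00377). These were 4 of 17 alternative fits, and the rest did not call it. No fit that left out a library called it (edgeR adjusted p from 0.067 to 0.169).

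The same order of libraries was present in Slc4a9, whose lowest control and lowest NaCl library were replicates 1 and 5. A term for the library number within groups was called in edgeR for 6 of the 49 carriers and for 13.2% of all genes. Both Slc4a4 (log2 0.35 per library number, adjusted p = 0.0281) and Slc4a9 (0.36, adjusted p = 1.68e-04) were among the 6. With the number as a drift over both groups the log2 change of Slc4a9 was -3.41 (adjusted p = 2.40e-11). No control library shares a number with an NaCl library, so the drift fit extrapolates each group to numbers it does not hold. Log2 changes from that fit, wherever given here, are therefore not directly comparable with those of the main fit. What the library number stands for is not given in the labels.

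Slc4a2 (ENSMUSG00000028962, chr5:24423837-24440950) encodes AE2, the widespread basolateral chloride-bicarbonate exchanger, and had the highest level of the family per transcript length. Its 4 controls had 206, 204, 207 and 216 CPM and its 4 NaCl libraries 243, 252, 238 and 251 CPM. The NaCl libraries were all higher, by an amount several times the spread within a group. The log2 change was 0.24 (SE 0.03; edgeR adjusted p = 3.18e-05), from 208 ± 5.11 to 246 ± 6.73 CPM (SD, n = 4 each). Exons of genes on the opposite strand, mainly Fastk, overlap 13.7% of its exonic bases, and the strandedness of the counting is not given.

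The sodium-coupled carriers Slc4a7 and Slc4a8 rose more. Slc4a7 (ENSMUSG00000021733, chr14:14702279-14799940), the electroneutral sodium-bicarbonate cotransporter NBCn1, had 61.0, 58.5, 59.4 and 59.8 CPM in control and 80.5, 75.5, 75.4 and 76.8 CPM in NaCl libraries. It rose 1.29-fold from 59.7 ± 1.04 to 77.0 ± 2.39 CPM (SD, n = 4 each), with a log2 change of 0.37 (SE 0.04; edgeR adjusted p = 1.82e-06). Within each group its libraries were nearly level, so the groups were far apart for a change of this size. Slc4a8 (ENSMUSG00000023032, chr15:100761747-100823968), the sodium-driven chloride-bicarbonate exchanger NDCBE, had 17.96, 19.3, 17.5 and 18.7 CPM in control and 24.2, 26.5, 26.01 and 23.4 CPM in NaCl libraries. Its change was 1.36-fold, with a log2 value of 0.45 (SE 0.06; edgeR adjusted p = 5.25e-05). Again no control library reached the lowest NaCl library.

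Slc4a3 (ENSMUSG00000006576, chr1:75546266-75562172) encodes AE3, a chloride-bicarbonate exchanger known mostly from excitable tissues. Its levels were 25.4, 27.0, 25.3 and 28.2 CPM in control and 36.1, 32.0, 30.4 and 30.2 CPM in NaCl libraries. The groups were separate, with NaCl replicate 5 the highest. The log2 change was 0.28 (SE 0.07) with an edgeR adjusted p of 0.00314.

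**Figure D2:**
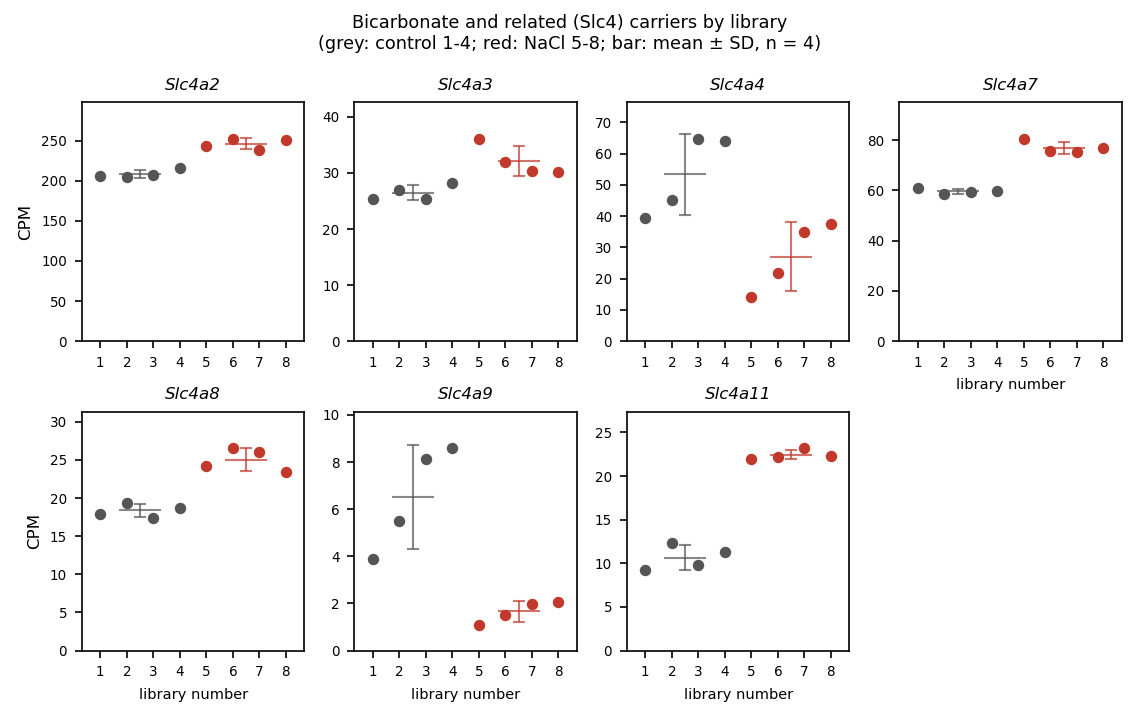
CPM (vertical axis, starting at 0) of the 7 Slc4 genes in each library, by library number; grey points are control and red points NaCl libraries, and bars give the mean ± SD (n = 4). Slc4a2, Slc4a3, Slc4a7, Slc4a8 and Slc4a11 are higher in all 4 NaCl libraries, and Slc4a4 and Slc4a9 are lower in all 4 while differing by library number within each group.

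Promoter windows are shown for 2 Slc4 genes that rose and for Slc4a4, whose NaCl libraries were all lower without a call, as the sequence around their annotated transcription starts. They come from RefSeq on GRCm38.p6, span 250 bases before to 50 bases after a start, and are written 5′ to 3′ on the gene's strand, which is plus for all of them. Windows for 41 of the 54 carriers matched, and none matched for Slc4a9 and Slc4a11. Capitals mark matches, on either strand, to TGGAAA, the fixed letters of the tonicity element bound by NFAT5, or to the metal response element core TGCACNC or TGCGCNC bound by MTF1. Slc4a7 at chr14:14718534-14718833 is shown because, of the 4 rising Slc4 genes with a window, it alone held a TGGAAA match, and Slc4a8 at chr15:100761497-100761796 as a rising gene with none. The Slc4a7 window surrounds an internal start, inside the gene at chr14:14702279-14799940, and no window at the gene's upstream end is shown. Slc4a4 is shown with both of its starts, at chr5:88887010-88887309 and chr5:89027716-89028015, whose transcripts are summed in the count of the gene.
Slc4a7: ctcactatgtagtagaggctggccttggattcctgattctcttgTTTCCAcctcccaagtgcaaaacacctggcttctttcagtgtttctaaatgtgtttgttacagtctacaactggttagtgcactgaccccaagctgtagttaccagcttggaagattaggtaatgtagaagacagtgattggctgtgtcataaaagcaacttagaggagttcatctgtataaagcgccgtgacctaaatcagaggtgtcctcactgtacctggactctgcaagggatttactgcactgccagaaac
Slc4a8: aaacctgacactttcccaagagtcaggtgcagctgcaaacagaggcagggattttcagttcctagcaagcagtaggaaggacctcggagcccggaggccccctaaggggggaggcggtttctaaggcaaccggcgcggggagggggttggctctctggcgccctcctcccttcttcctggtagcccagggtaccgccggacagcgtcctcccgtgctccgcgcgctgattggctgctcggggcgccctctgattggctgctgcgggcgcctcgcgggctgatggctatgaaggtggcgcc
Slc4a4 upstream start: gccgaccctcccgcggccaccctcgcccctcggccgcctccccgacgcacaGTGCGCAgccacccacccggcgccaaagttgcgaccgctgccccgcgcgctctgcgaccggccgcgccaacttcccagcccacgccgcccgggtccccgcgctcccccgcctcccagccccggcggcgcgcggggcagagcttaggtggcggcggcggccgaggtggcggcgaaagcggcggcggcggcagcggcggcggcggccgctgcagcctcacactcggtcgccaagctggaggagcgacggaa
Slc4a4 downstream start: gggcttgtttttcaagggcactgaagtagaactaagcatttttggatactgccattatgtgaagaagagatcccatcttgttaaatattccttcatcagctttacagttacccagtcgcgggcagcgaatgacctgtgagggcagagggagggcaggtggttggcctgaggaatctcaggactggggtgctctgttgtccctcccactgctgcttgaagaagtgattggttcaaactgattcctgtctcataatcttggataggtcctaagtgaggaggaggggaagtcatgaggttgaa

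The TGGAAA match in the Slc4a7 window begins at position -206 from the internal start and lies on the opposite strand, so it reads as its reverse complement above. The metal core match in the upstream Slc4a4 window begins at position -199 and is also on the opposite strand. Over all 52 windows of the carriers, 6 (11.5%) held TGGAAA, beside 21.4% of all 32851 promoter windows of that length. Of the 13 called carriers with a window, Slc4a7 alone held such a match, and the 5 other carriers with one were Slc8a3, Slc9a9, Slc24a5, Slc26a10 and Slc39a7. The metal core was held by 19 windows (36.5%), beside 25.7% of all windows, and by 9 of the 19 windows of called carriers (47.4%). GC content of the windows shown ran from 45.0% in Slc4a7 to 80.0% in the upstream Slc4a4 window. These are matches of letters in a short window and are given as a description.

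Sodium-proton exchangers (Slc9) gave no call among 6 tested, where 34.1% of all genes were called, with 0 at an unadjusted p under 0.05 in edgeR and 0 called by DESeq2 or limma-voom. Slc9a5, a plasma membrane exchanger known mostly from brain, had 17.1, 15.4, 16.1 and 14.1 CPM in control and 18.3, 17.8, 17.1 and 16.3 CPM in NaCl libraries. Its groups overlapped, and the log2 value was 0.15 (SE 0.08; edgeR adjusted p = 0.151). With the library number as a linear drift it was called higher (log2 0.42, adjusted p = 0.0279). The groups of Slc9a8, a Golgi exchanger, did not overlap, with controls at 30.1 to 32.2 CPM and NaCl libraries at 28.6 to 29.8 CPM. Its log2 value was -0.09 (SE 0.05; edgeR adjusted p = 0.199). Slc9a7 and Slc9a9 were low, at 1.05 and 0.314 CPM in control, and a change of their size could not be resolved.

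Anion exchangers of the Slc26 family likewise gave no call among 4 tested (34.1% of all genes), with 0 at an unadjusted p under 0.05 in edgeR and 0 called by DESeq2 or limma-voom. Slc26a11, a sulfate carrier, had the highest level per length, with 8.41 to 9.15 CPM in control and 8.27 to 10.2 CPM in NaCl libraries. Its log2 value was 0.03 (SE 0.10; edgeR adjusted p = 0.87). The sulfate carrier Slc26a2 had a log2 value of -0.0027 and Slc26a6, an exchanger of chloride for bicarbonate and oxalate, had 0.23 (SE 0.15; edgeR adjusted p = 0.27). Slc26a8 was tested at 0.285 CPM in control, and Slc26a10 was too low to test.

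Cation-chloride cotransporters (Slc12) leaned upwards, with 7 of 8 log2 values above 0, 2 called higher (25.0%, beside 16.9% of all genes) and none lower. The potassium-chloride cotransporter gene Slc12a4 (ENSMUSG00000017765, chr8:105943590-105966097), which encodes KCC1, had 93.3, 90.8, 90.2 and 85.5 CPM in control and 102, 104, 104 and 102 CPM in NaCl libraries. All NaCl libraries were higher and lay within 3 CPM of each other. The log2 change was 0.20 (SE 0.04) with an edgeR adjusted p of 4.62e-04. A gene on the opposite strand, Gm16156, overlaps 8.44% of its exonic bases.

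Slc12a8 (ENSMUSG00000035506, chr16:33517328-33664135), an outlying member of the family, had 1.45, 1.78, 0.822 and 1.35 CPM in control and 2.32, 2.22, 1.96 and 2.26 CPM in NaCl libraries. The groups were separate, control replicate 3 being the lowest library. The change was 1.62-fold, with a log2 value of 0.70 (SE 0.23) and an edgeR adjusted p of 0.0242. The call was lost without control replicate 3 (log2 0.52, adjusted p = 0.0632), without NaCl replicate 6 (0.69, adjusted p = 0.0508) and with the library number as a linear drift (1.002, adjusted p = 0.119).

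Slc12a7, Slc12a9 and Slc12a5 were not called. Slc12a7 (KCC4) had a log2 value of 0.10 (SE 0.04; edgeR adjusted p = 0.0775), with controls from 67.2 to 70.1 CPM and NaCl libraries from 70.6 to 76.6 CPM, and was called with the library number centred within its group as a covariate (adjusted p = 0.0358). Slc12a9, a family member known as a cotransporter-interacting protein, had -0.0037, and the neuronal KCC2 gene Slc12a5 had 0.31 at under 1 CPM.

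Carriers that mark other nephron segments were present at low levels. Slc12a1, which encodes the NKCC2 of the thick ascending limb, had 1.64, 1.80, 0.894 and 0.686 CPM in control and 2.62, 2.03, 1.60 and 1.55 CPM in NaCl libraries. The groups overlapped, because control replicates 1 and 2 were above NaCl replicates 7 and 8. Its log2 value of 0.63 (SE 0.29) had an edgeR adjusted p of 0.114, which became 0.0196 with the library number centred within groups and 0.00158, at a log2 value of 2.09, with a linear drift. Slc12a3, which encodes the NCC of the distal convoluted tubule, had 0.880, 1.33, 1.64 and 0.946 CPM in control and 1.25, 1.77, 2.21 and 1.95 CPM in NaCl libraries. These groups overlapped as well, and the log2 value of 0.59 (SE 0.25) had an edgeR adjusted p of 0.0844. It was called without control replicate 3 (log2 0.78, adjusted p = 0.0384) and without NaCl replicate 5 (0.72, adjusted p = 0.0414), and was -0.0222 (adjusted p = 0.984) with a linear drift. The segment markers Slc4a1, Slc26a4 and Slc34a1 were not analysed here. All 4 markers listed for the thick ascending limb, Slc12a1 among them, summed to 3.46 to 4.34 CPM in control and 4.24 to 5.64 CPM in NaCl libraries. The 2 distal convoluted tubule markers analysed, Slc12a3 and Trpm6, summed to 20.6 to 28.3 and 22.1 to 29.4 CPM, nearly all Trpm6, and 3 proximal tubule markers to 162 to 205 and 155 to 177 CPM, nearly all Lrp2.

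Phosphate cotransporters of the Slc20 family, 2 genes, were both called lower, where 17.2% of all genes were. Slc20a2 (ENSMUSG00000037656, chr8:22476788-22569612), which encodes the sodium-phosphate cotransporter PiT2, had 91.5, 93.8, 92.5 and 87.8 CPM in control and 75.6, 82.7, 79.9 and 78.4 CPM in NaCl libraries. Slc20a1 (ENSMUSG00000027397, chr2:129198764-129211616), which encodes PiT1, had 47.97, 48.8, 48.2 and 44.7 CPM in control and 40.6, 42.3, 41.7 and 38.3 CPM in NaCl libraries. In both genes every NaCl library was below every control library. The log2 changes were -0.21 (SE 0.04; edgeR adjusted p = 6.39e-04) for Slc20a2 and -0.22 (SE 0.05; adjusted p = 0.00213) for Slc20a1. With the library number as a linear drift over both groups neither was called, with a log2 value of -0.19 (adjusted p = 0.0726) for Slc20a2 and -0.10 (0.475) for Slc20a1. Genes on the opposite strand overlap 13.1% of the exonic bases of Slc20a1.

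Of the sodium-calcium exchangers, Slc24a3 alone was abundant enough to test, and Slc8a3 and Slc24a5 had means between 0.185 and 0.206 CPM in both groups and were not tested. Slc24a3 (ENSMUSG00000063873, chr2:145167754-145642166) encodes NCKX3, an exchanger of sodium for calcium and potassium. It had 7.25, 7.21, 6.16 and 5.89 CPM in control and 5.16, 4.97, 3.95 and 5.26 CPM in NaCl libraries, with no overlap. The log2 change was -0.46 (SE 0.12; edgeR adjusted p = 0.00862), and with a linear drift it was -0.18 (adjusted p = 0.659).

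Among iron and divalent metal carriers the exporter fell and the importer did not pass the test. Slc40a1 (ENSMUSG00000025993, chr1:45908068-45926523), which encodes ferroportin, had 31.3, 32.7, 34.2 and 37.6 CPM in control and 23.9, 24.7, 23.3 and 27.1 CPM in NaCl libraries. The highest NaCl library was below the lowest control library. It fell by 0.45 on the log2 scale (SE 0.07; edgeR adjusted p = 5.75e-05), from 33.9 ± 2.69 to 24.7 ± 1.68 CPM (SD, n = 4 each), and by 0.73 with a linear drift (adjusted p = 4.28e-06). Slc11a2 (ENSMUSG00000023030), which encodes the divalent metal importer DMT1, had 53.2, 54.1, 52.3 and 49.5 CPM in control and 52.7, 53.0, 48.2 and 52.6 CPM in NaCl libraries. Its groups overlapped, with a log2 value of -0.02 (SE 0.05; edgeR adjusted p = 0.80) and a 95% interval from -0.11 to 0.07. Slc11a1, the NRAMP1 gene of macrophages, had 0 to 14 counts in a library and was not tested.

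Of 3 magnesium carriers, 1 was called (33.3%, near the 34.1% of all genes). Slc41a1 (ENSMUSG00000013275, chr1:131827493-131848865), which encodes a sodium-magnesium exchanger, had 45.5, 44.5, 48.3 and 50.3 CPM in control and 39.3, 41.8, 41.6 and 43.3 CPM in NaCl libraries. The groups did not overlap, and the log2 change was -0.18 (SE 0.05; edgeR adjusted p = 0.0106), or -0.37 (adjusted p = 0.00184) with a linear drift. Slc41a2 and Slc41a3 had log2 values of -0.17 and -0.34 with edgeR adjusted p of 0.121 and 0.0734, and their groups overlapped. Slc41a3 was called lower with the library number centred within groups (log2 -0.33, edgeR adjusted p = 0.0369) and without control replicate 3. With a linear drift it was not called (log2 -0.16, adjusted p = 0.740).

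**Figure D3:**
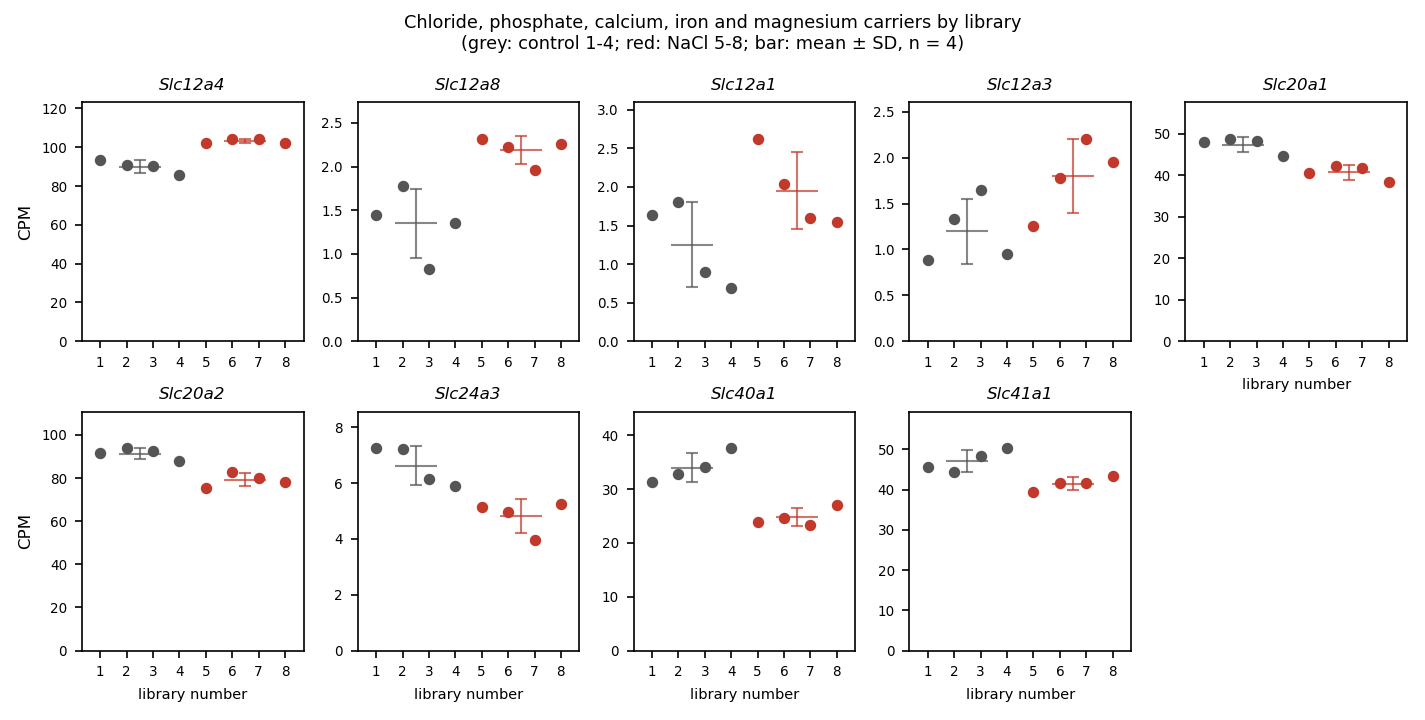
CPM (vertical axis, starting at 0) by library number for chloride (Slc12), phosphate (Slc20), calcium (Slc24), iron (Slc40) and magnesium (Slc41) carriers; grey points are control, red points NaCl libraries, and bars the mean ± SD (n = 4). Slc12a4 and Slc12a8 are higher, and Slc20a1, Slc20a2, Slc24a3, Slc40a1 and Slc41a1 lower, in all 4 NaCl libraries, while the groups of Slc12a1 and Slc12a3 overlap.

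Of 16 zinc carriers tested, 5 were called (31.2%, near the 34.1% of all genes), 3 higher and 2 lower, and none of the 5 changes reached 1.5-fold. Of the Slc30 exporters 2 of 5 were called, and of the Slc39 importers 3 of 11. The median log2 fold change of the 16 was -0.004 and the median absolute change 0.10, beside 0.14 over all genes.

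Slc30a4 (ENSMUSG00000005802, chr2:122681233-122702663), which encodes the vesicular exporter ZnT4, had 124, 116, 110 and 108 CPM in control and 139, 144, 145 and 123 CPM in NaCl libraries. NaCl replicate 8 was level with control replicate 1, so the groups overlapped by this pair. The log2 change was 0.27 (SE 0.05; edgeR adjusted p = 0.00153), and 0.51 (adjusted p = 2.30e-06) with a linear drift. Slc30a5 (ENSMUSG00000021629, chr13:100802648-100833427), which encodes the Golgi exporter ZnT5, moved the other way, from 97.1, 91.1, 90.9 and 94.4 CPM in control to 78.6, 78.4, 87.1 and 86.0 CPM in NaCl libraries. All of these were below the controls, and the log2 change was -0.18 (SE 0.04; edgeR adjusted p = 0.0044). The ZnT5 partner Slc30a6, the Golgi exporter Slc30a7 and Slc30a9 had log2 values of 0.08, -0.09 and 0.04 and were not called.

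The plasma membrane importers Slc39a6 and Slc39a10, whose proteins are known to pair, both rose. Slc39a6 (ENSMUSG00000024270) had 72.4, 72.3, 70.9 and 67.7 CPM in control and 82.3, 78.7, 77.2 and 80.1 CPM in NaCl libraries, without overlap. Its log2 change was 0.17 (SE 0.04; edgeR adjusted p = 0.00324). For Slc39a10 (ENSMUSG00000025986, chr1:46807544-46892852), 54.4, 49.4, 50.1 and 50.4 CPM in control stood against 57.2, 60.5, 53.8 and 57.0 CPM in NaCl libraries. Control replicate 1 reached above NaCl replicate 7, and the log2 change of 0.16 (SE 0.05; edgeR adjusted p = 0.0153) lost its call without control replicate 2 (adjusted p = 0.0559) or NaCl replicate 6 (0.0638). With a linear drift the log2 changes were 0.26 for both, with adjusted p of 0.00944 and 0.0274.

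Slc39a3 (ENSMUSG00000046822, chr10:81028538-81037426), another importer of the plasma membrane, had 23.9, 21.4, 21.8 and 25.0 CPM in control and 17.9, 19.4, 20.2 and 21.7 CPM in NaCl libraries. NaCl replicate 8 lay between the controls. Its log2 change was -0.22 (SE 0.07; edgeR adjusted p = 0.0291), and the call was lost in 5 of the 8 fits that left out a library, without control replicate 1 or 4 or NaCl replicate 5, 6 or 7 (adjusted p from 0.0507 to 0.0896). With a linear drift the log2 change was -0.44 (adjusted p = 0.0144).

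The most abundant zinc carriers were not called. Slc39a7, which encodes the ZIP7 of the endoplasmic reticulum, had 242, 243, 246 and 241 CPM in control and 226, 246, 237 and 228 CPM in NaCl libraries, a log2 value of -0.05 (SE 0.03; edgeR adjusted p = 0.27). Gm20427, on the same strand, covers 80.7% of its exonic bases, so reads could be shared between the gene models. Slc39a1, a plasma membrane importer, had a log2 value of -0.08 (SE 0.04; edgeR adjusted p = 0.186) and was called lower with the library number centred within groups (adjusted p = 0.042) or as a linear drift (-0.25, adjusted p = 0.00397). Slc39a9, Slc39a11, Slc39a13 and Slc39a14 had log2 values between -0.11 and 0.08. Slc39a2 and Slc39a4 had under 1 CPM in control, and Slc39a8 had 0 to 15 counts in a library and was not tested.

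**Figure D4:**
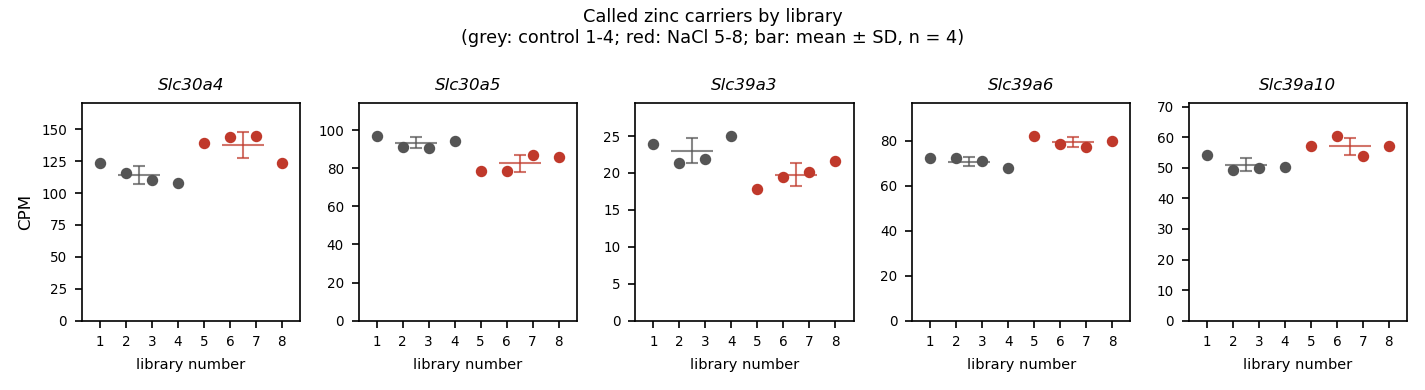
CPM (vertical axis, starting at 0) by library number for the 5 called zinc carriers; grey points are control, red points NaCl libraries, and bars the mean ± SD (n = 4). Slc30a4, Slc39a6 and Slc39a10 have higher and Slc30a5 and Slc39a3 lower NaCl means, and the points of Slc30a4, Slc39a3 and Slc39a10 overlap between groups.

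Levels were compared between genes as CPM per kb of annotated exon. Slc39a7 (94.0 ± 0.821 CPM per kb in control, SD, n = 4), Slc39a1 (77.6 ± 3.48) and Slc4a2 (25.0 ± 0.614) had the highest levels, followed by Slc12a4 (21.0 ± 0.764) and Slc30a4 (20.9 ± 1.30), which did not differ beyond their spread. Per family, the leading genes in control included Slc26a11 (2.40), Slc20a2 (14.7), Slc11a2 (8.23), Slc41a1 (9.59) and Slc24a3 (1.45 CPM per kb). Within the Slc4 family the order below Slc4a2 was Slc4a4 (4.94 ± 1.20), Slc4a7 (3.93 ± 0.0684), Slc4a3 (3.08 ± 0.160) and Slc4a11 (2.13 ± 0.286) in control. In NaCl libraries it was Slc4a7 (5.07 ± 0.157), Slc4a11 (4.49 ± 0.105), Slc4a3 (3.74 ± 0.319) and Slc4a4 (2.50 ± 1.01). Slc4a4 and Slc4a7 did not differ beyond their spread in control, and in NaCl libraries Slc4a11 stood above both Slc4a3 and Slc4a4. With the longest transcript as length the 3 highest genes kept their places, and Slc12a4 and Slc30a4 moved to ranks 6 and 8. That length also put Slc4a7 (7.34 CPM per kb) above Slc4a4 (6.73) in control.

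**Figure D5:**
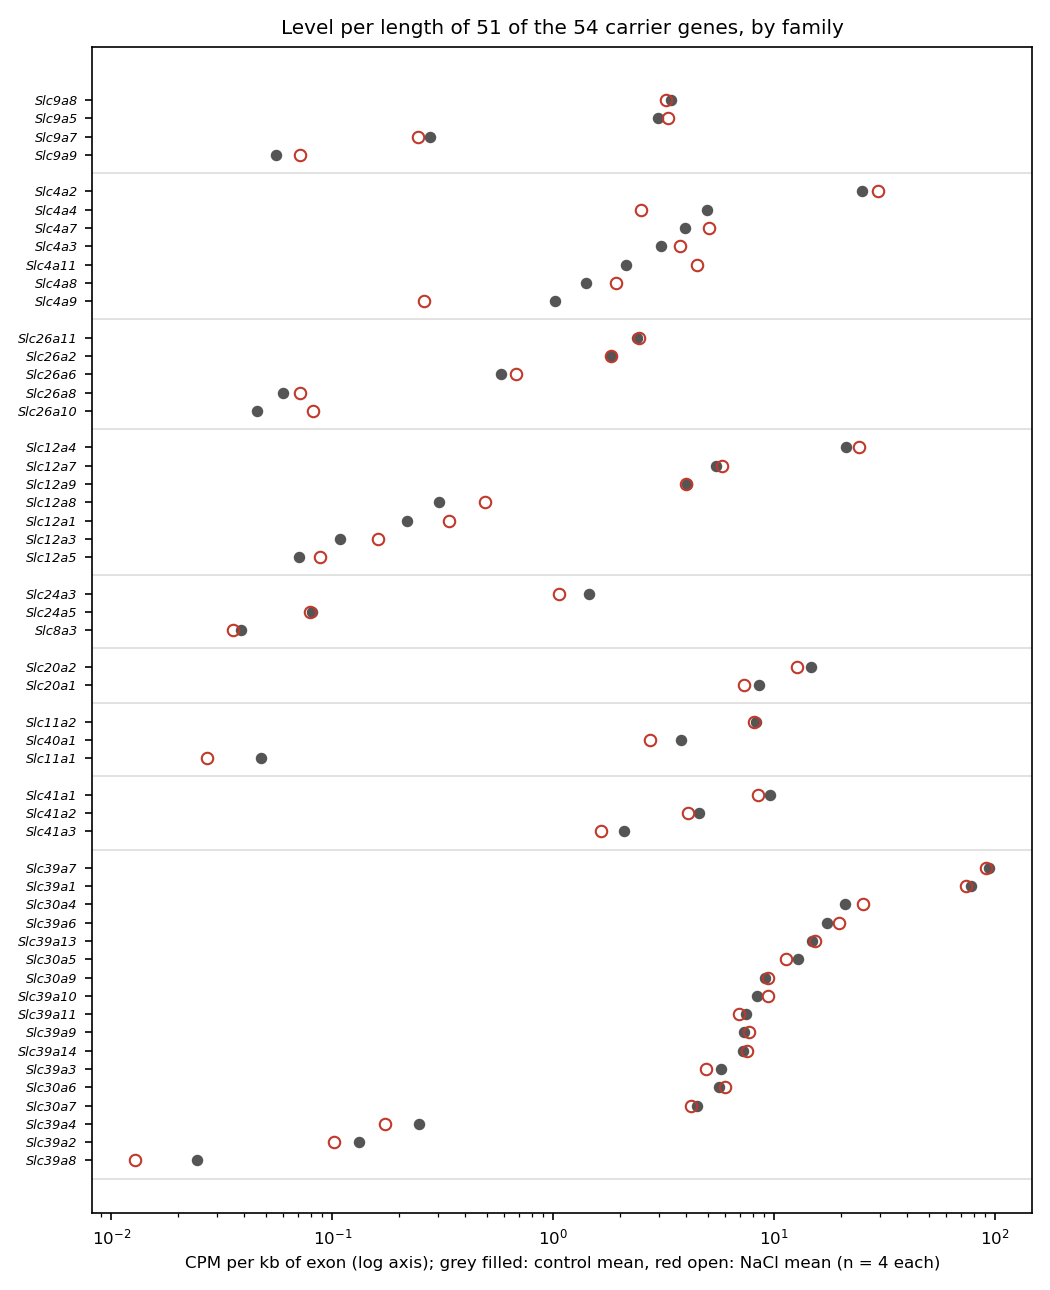
Mean CPM per kb of exon (horizontal axis, log scale) of 51 of the 54 carriers, ordered by family and by control level; filled grey points are control and open red points NaCl means (n = 4 each). Control levels span from 0.0244 CPM per kb for Slc39a8 to 94.0 for Slc39a7, and the control and NaCl points of most genes lie close together.

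Other genes of the same pathways were listed by function, and 48 of the 64 listed were analysed. Of 47 tested, 22 (46.8%) were called in edgeR, beside 34.1% of all genes, with 11 higher (16.9% of all genes) and 11 lower (17.2%). The 7 called with 1.5-fold or more, beside 7.02% of all genes, were Car2, Car5b, Car12, Slc8b1, Ank, Cp and Cnnm1. With the library number as a linear drift, 10 of the 22 kept their call and direction, beside 2191 of the 4789 called among all genes. Of the 7 genes with 1.5-fold or more, Cnnm1 was the single one not called in that fit.

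Carbonic anhydrases, which interconvert CO2 and bicarbonate and so supply bicarbonate carriers, were listed together with regulators of these carriers, and 5 of 10 were called (50%, beside 34.1% of all genes), 4 higher (16.9%) and 1 lower (17.2%). The cytosolic Car2 rose from 19.6 ± 1.30 to 33.95 ± 3.41 CPM (SD, n = 4 each; log2 0.79, SE 0.07; edgeR adjusted p = 4.17e-07). The mitochondrial Car5b rose from 33.3 ± 1.77 to 64.3 ± 4.23 CPM (log2 0.95, SE 0.06; adjusted p = 1.36e-09). The membrane-bound Car12 rose from 30.4 ± 3.41 to 55.3 ± 8.73 CPM (log2 0.87, SE 0.12; adjusted p = 7.28e-04), and with a linear drift its log2 change was 0.30 (adjusted p = 0.0472). All 4 NaCl libraries lay above the controls for each of these 3 genes. Ahcyl2, a relative of the NBCe1 regulator IRBIT, was called higher at a log2 change of 0.21, and the cytosolic Car13 was called lower at -0.31. With a linear drift both calls were lost, at log2 values of 0.12 (adjusted p = 0.382) and -0.10 (0.605). Among those not called, Car9, Car7 and Car15 had log2 values of -0.66, -0.58 and -0.32 and Car11 and Ahcyl1 of 0.33 and 0.01, and Car9 was called lower with a linear drift (-1.81, adjusted p = 0.00716).

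Iron genes other than the carriers were called in 6 of 11 cases (54.5%, beside 34.1% of all genes), 5 lower (17.2% of all genes) and 1 higher. Cp, which encodes the ferroxidase ceruloplasmin, fell from 555 ± 47.0 to 319 ± 27.1 CPM (SD, n = 4 each; log2 -0.80, SE 0.07; edgeR adjusted p = 1.31e-05). The ferritin chain genes Ftl1 and Fth1 fell by 0.39 and 0.25 on the log2 scale (adjusted p = 3.35e-08 and 1.03e-05), and Steap3 and Aco1 were the others called lower. Ncoa4, the receptor for ferritin breakdown, was called higher at 0.13. The transferrin receptor gene Tfrc had a log2 value of -0.10 (adjusted p = 0.503), or -0.54 (7.89e-08) with a linear drift. In that fit Aco1 (log2 -0.05, adjusted p = 0.662) and Ncoa4 (-0.05, adjusted p = 0.647) lost their calls.

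Of 3 calcium extrusion genes tested all were called, 2 lower and 1 higher, where 34.1% of all genes were called. The mitochondrial exchanger gene Slc8b1 rose from 27.4 ± 0.944 to 41.1 ± 1.42 CPM (SD, n = 4 each; log2 0.59, SE 0.05; edgeR adjusted p = 1.70e-07), and the plasma membrane pump genes Atp2b1 and Atp2b4 fell by 0.10 and 0.28. With a linear drift Slc8b1 alone of the 3 was called, with log2 values of -0.14 (adjusted p = 0.0904) for Atp2b1 and -0.27 (0.129) for Atp2b4. Of 3 genes analysed, of 4 listed, for phosphate and pyrophosphate handling, Ank rose from 120 ± 11.5 to 244 ± 9.91 CPM (log2 1.02, SE 0.06; adjusted p = 3.29e-08), Enpp1, which encodes an enzyme that makes pyrophosphate outside the cell, fell by 0.38 (-0.09 with a linear drift, adjusted p = 0.698), and the phosphate exporter gene Xpr1 had a log2 value of -0.01 (adjusted p = 0.82). Of 10 other magnesium genes, 3 were called (30%, near the share of all genes), with Cnnm1 the 1 past 1.5-fold at 0.228 ± 0.0717 and 0.848 ± 0.100 CPM (log2 1.89, SE 0.35; adjusted p = 5.16e-04). With a linear drift none of the 3 (Cnnm1, Cnnm2 and Nipa1) was called, at log2 values of 1.64, -0.09 and -0.19 (adjusted p = 0.129, 0.509 and 0.593). Copper carriers and chaperones were called in 2 of 5 cases (40%, beside 34.1% of all genes), Slc31a2 higher and Atox1 lower, the latter not called with a linear drift (log2 -0.26, adjusted p = 0.0648). Of 5 partners of the sodium-proton exchangers, 1 was called (20%), the scaffold gene Nherf1 at a log2 change of 0.12 (SE 0.03; adjusted p = 0.00626, or 0.15 with adjusted p = 0.0763 with a linear drift).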

How the data were processed

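RNA of 8 libraries (4 control, 4 NaCl) had been sequenced in bulk. The raw counts per Ensembl gene were deposited by the authors as whole numbers, and Trim Galore 0.6.7, STAR, DESeq2 1.34.0 and the mm10 build are named in the submitters' processing notes. The counting program, its strandedness and the gene filter are not given in the sources used here. The table's lowest gene total was 19 counts. A second table of normalized values was not used.

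The whole table was tested with edgeR 4.0.16 under R 4.3.3: filterByExpr at a minimum count of 10 (14024 genes kept, the 1264 left out holding 0.0191% of counts), TMM factors (0.99 to 1.02), the robust form of the quasi-likelihood F test on treatment alone, and Benjamini-Hochberg adjustment over all genes tested. Standard errors are the log2 fold change over the square root of F, and 95% intervals use 1.96 of them. The fit was tested on simulated data. Depth was 35.29 to 47.57 M counts, and no 2 libraries were alike within counting noise. Places, lengths and overlaps come from GENCODE M21 (GRCm38, the mm10 assembly). The files hold 8 sample columns in the table used, all mapped by title.

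The members, lists and tests were chosen with earlier results of these data known. Named are, in each family, up to 3 called members with the highest absolute change, the member with the highest level per length, called changes of at least 1.5-fold, called members with at most 3 counts in all libraries of a group, and segment markers. The remaining members were named after their values were seen, and some members are not reported here by name. Alternatives were median-of-ratios and upper-quartile factors, no filter, at least 10 counts in every library, DESeq2 1.42.0, limma-voom (limma 3.58.1), the library number as a covariate in 2 forms, thinning, leaving out each library, and the longest transcript as length.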

Additional observations from a re-analysis of the deposited data

Results flagged for a closer look

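In 52 groups of 4 libraries' values, 4 had a library far from the other 3, and chance gives about 1 in 20. Total counts of control replicate 1 were 47.57 M where the other controls had 41.77 to 42.73 M. The smallest NaCl total, 35.29 M in replicate 5, lay apart from totals of 41.37 to 42.39 M. Slc11a2 had 48.21 CPM in NaCl replicate 7, below the 52.64 to 52.97 CPM of the other NaCl libraries. Slc26a11 had 10.19 CPM in NaCl replicate 6, above the 8.265 to 8.537 CPM of the others. Neither gene was called with or without these libraries.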

How the results depend on the processing

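The number of called carriers was 18, and under the 17 alternative fits it ran from 15 to 23. In the same fits the share of all genes called ran from 24.1% (linear drift) to 43% (library number centred within groups). All 18 were called in the same direction with median-of-ratios or upper-quartile factors, without a filter, with at least 10 counts in every library, with DESeq2, with limma-voom, after thinning and with the library number centred within groups. With the number as a linear drift, 14 of the 18 were, and Slc12a8, Slc20a1, Slc20a2 and Slc24a3 were not. Over all genes, 2191 of the 4789 called kept their call and direction in that fit. Leaving out a library kept 15 to 18 of the 18, losing Slc12a8, Slc39a3 or Slc39a10. None of the 18 changed direction in any of these fits. No paired analysis was possible because the groups share no library number. Carriers under about 1 CPM, such as Slc9a9, had standard errors too wide to resolve changes of the size seen in the other members.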

Other observations

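The 6 carriers with a called term for the library number within groups were Slc4a4, Slc4a9, Slc12a1, Slc30a4, Slc30a9 and Slc39a1. Per library number the log2 values were 0.35, 0.36 and -0.35 for Slc4a4, Slc4a9 and Slc12a1 and -0.06, 0.06 and 0.04 for Slc30a4, Slc30a9 and Slc39a1. Slc30a9, a zinc carrier of mitochondria, had 107, 113, 114 and 116 CPM in control replicates 1 to 4 and 105, 113, 118 and 126 CPM in NaCl replicates 5 to 8, so that the libraries with the lowest numbers of both groups were nearly level. Its log2 change between groups was 0.04 (edgeR adjusted p = 0.55), and with a linear drift over libraries 1 to 8 it was -0.21 (adjusted p = 0.0231).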
